A study of Mus musculus with 9 samples.

Results

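Autophagy delivers cytoplasm, protein aggregates and worn mitochondria to the lysosome, and the present data describe 39 of the genes that run this pathway in mouse hematopoietic stem cells (HSCs). The 39 genes were taken by name from a fixed list, and each name matched 1 row of the 56748 genes in the count table. RNA was sequenced from 9 bulk libraries of HSCs that were sorted from the bone marrow of female C57BL/6 mice by the SLAM marker gate (Lin-Sca1+c-Kit+, CD48-CD150+). The yHSC group (n = 3) came from mice of 6 to 10 weeks. HSCs of pre-aged mice of 14 to 16 months (paHSCs) were split by surface P-selectin (Selp), an adhesion receptor of platelets and endothelium, into Selp_low (n = 3) and Selp_high (n = 3) fractions. The labels name no engineered allele and no treatment in any group, and they do not say which animals went into which library, so the tests below measure the spread between libraries.

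Autophagy starts when the ULK1 kinase complex and a lipid kinase complex build a membrane cup. Lipids are fed into the cup, small ubiquitin-like proteins of the ATG8 family are joined to it, and receptors bound to cargo dock on these proteins. The closed vesicle then fuses with a lysosome, where acid hydrolases digest the content. In HSCs autophagy is known for clearing mitochondria and holding metabolism low, FOXO3 is known for sustaining autophagy genes, and lysosomes are known for their part in quiescence. TFEB and TFE3 are the transcription factors best known for driving lysosomal and autophagy genes together.

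No gene of the 39 passed the thresholds of a DEG (a differentially expressed gene) between any 2 groups, an adjusted p of 0.05 or less with a log2 fold change of at least 1 in either direction. All 39 passed the filter on low counts in each of the 3 comparisons, and every one had at least 98 counts in every library, so low depth did not remove any of them. The differences that come next are therefore levels and fold changes with their errors, in the order of the pathway. Levels are CPM, each gene's count divided by the library total and scaled by TMM factors, which compare a gene with itself across libraries. Levels of different genes are compared only as FPKM, which also divides by gene length.

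The libraries differed in ways that touch these values. Depth ranged from 24866975 to 35375310 counts. The 10 most abundant genes took 44.78% of the counts in Selp_low replicate 2 and 20.95% in Selp_low replicate 3, against 3.90% to 12.5% in the other 7 libraries. All 10 HSC markers (such as *Kit*, *Slamf1*, *Procr* and *Hlf*) had counts in every group, and their summed level was 1036 to 2293 CPM in yHSCs, 819 to 1505 CPM in Selp_low paHSCs and 2172 to 3118 CPM in Selp_high paHSCs. Markers of other cells were present too, and none of the 10 neutrophil or 9 B-cell markers was at 0 throughout a group. The neutrophil sum was 63334 CPM in yHSC replicate 1, 204033 CPM in Selp_low replicate 3 and 39638 CPM in Selp_high replicate 3, against 536 to 17466 CPM in the other libraries. The B-cell sum was 170344 CPM in Selp_low replicate 2, 9234 CPM in Selp_low replicate 1 and 8818 CPM in Selp_high replicate 2, against 414 to 1959 CPM elsewhere. The megakaryocyte and platelet sum was 110 to 179 CPM in yHSCs, 128 to 2012 CPM in Selp_low paHSCs and 1202 to 7126 CPM in Selp_high paHSCs, so it separated Selp_high paHSCs from yHSCs. The T and NK cell sum was 59.7 to 91.4 CPM in yHSCs, 357 to 975 CPM in Selp_low paHSCs and 133 to 154 CPM in Selp_high paHSCs, with no overlap between groups. Single genes set part of this separation. In Selp_low replicate 3 *Nkg7* made 619 of the 632.5 CPM. *Cd3e*, *Cd3d*, *Cd3g*, *Cd4* and *Trbc2* were at 0.11 to 1.87 CPM there, none above its highest yHSC library. *Klrb1c* was at 39.2 to 102 CPM in Selp_high paHSCs and 2.91 to 3.94 CPM in yHSCs. In bulk RNA, fewer cells of a type and less RNA per cell cannot be told apart.

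The 39 genes were transcribed at very different levels. Over the 9 libraries the highest mean FPKM belonged to *Ctss* (142 FPKM), *Lamp1* (124 FPKM), *Ctsd* (119 FPKM), *Ctsb* (108 FPKM) and *Sqstm1* (108 FPKM), so 4 of the top 5 encode lysosomal proteins. The rank of *Ctss* came from Selp_low paHSCs (mean 329 FPKM). Its means were 47.9 FPKM in yHSCs and 49.6 FPKM in Selp_high paHSCs, below those of *Lamp1* there (97.0 and 156 FPKM). The lowest belonged to *Npc1* (1.11 FPKM), *Foxo3* (2.65 FPKM), *Atg2a* (3.63 FPKM), *Rb1cc1* (3.71 FPKM) and *Tfe3* (3.83 FPKM). The steadiest genes across the 9 libraries were *Atg4b*, whose highest CPM was 1.34-fold its lowest, *Becn1* (1.57-fold) and *Atg13* (1.77-fold). The most variable were *Ctss* (239-fold), *Wipi1* (8.72-fold), *Ulk1* (6.72-fold), *Npc1* (6.36-fold) and *Ctsl* (6.31-fold). Among yHSCs, replicate 1 was the lowest library for 26 of the 39 genes and replicate 3 the highest for 26, and Selp_low replicate 3 was the highest of its group for 23.

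**Figure D1:**
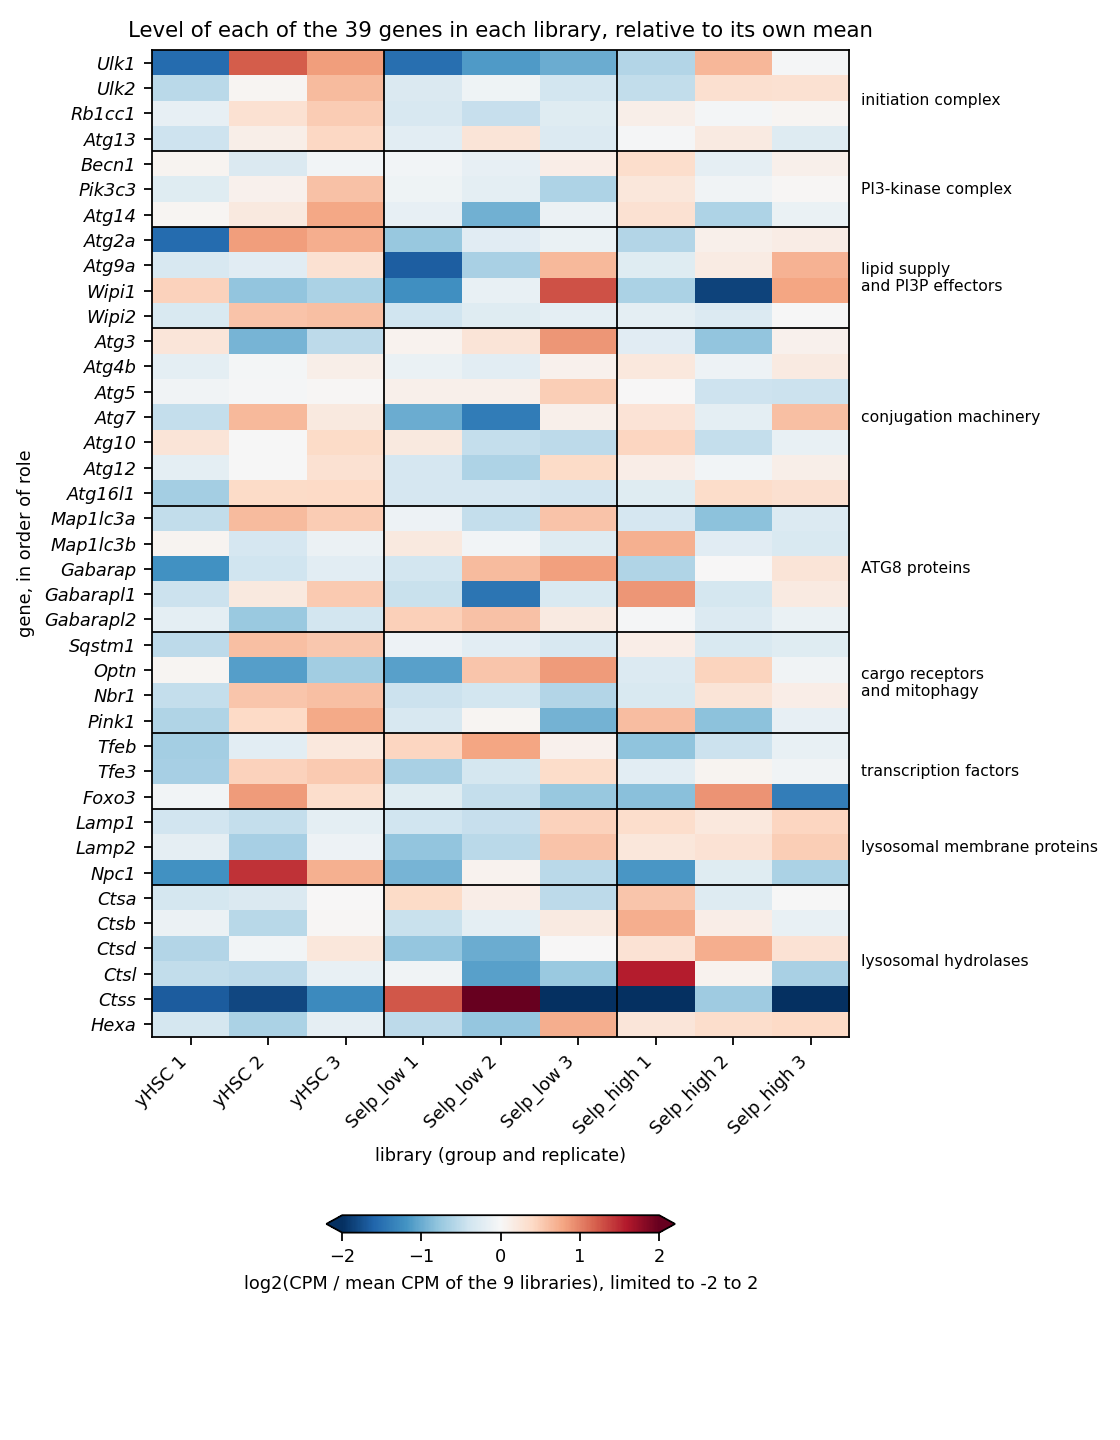
Each row is a gene and each column a library, colored by the log2 ratio of its CPM to the mean of its 9 libraries (color limited to -2 and 2), with black lines between roles and groups. *Ctss* spans the widest range, from 3.67 CPM in Selp_low replicate 3 to 879 CPM in Selp_low replicate 2. *Ulk1* is blue in yHSC replicate 1 and in all Selp_low libraries, and less so in Selp_high replicate 1 (26.2 CPM).

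Between the paHSC fractions, 29 of the 39 genes had a higher mean level in Selp_high paHSCs and 10 a lower one, with a median log2 fold change of 0.20 against -0.11 for all 20370 genes tested. With edgeR 0 genes of the 39 and 0% of all genes were called, and DESeq2 called 0 of the 39 and 2.46% of all genes. An unadjusted p under 0.05 was reached by 4 of the 39 (10.3%) and by 12.5% of all genes. In 6 genes (15.4%) every Selp_high library lay above every Selp_low library, namely *Ulk1*, *Rb1cc1*, *Pik3c3*, *Atg16l1*, *Nbr1* and *Ctsd*, where 10.3% of all genes did so. In 3 genes (7.69%), *Atg5*, *Gabarapl2* and *Tfeb*, every Selp_high library lay below, where 10.7% of all genes did so. Both shares were near those of all genes. The lowest adjusted p of the 39 was 0.338, and the exact permutation test of 3 libraries against 3 could not go below 0.1.

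Against yHSCs, the Selp_high fraction had a higher mean level in 20 genes and a lower one in 19, with a median log2 fold change of 0.0032 beside -0.033 for all genes. Calls by edgeR were 0 of the 39 against 0.165% of all genes, and those by DESeq2 were 0 against 3.26%. An unadjusted p under 0.05 was found for 3 of the 39 (7.69%) and for 7.59% of all genes. *Lamp1*, *Lamp2*, *Ctsd* and *Hexa* (10.3% of the 39) were above every yHSC library in every Selp_high library, against 8.53% of all genes, and none of the 39 was below in every library, against 5.28%. All 4 genes encode lysosomal proteins.

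The Selp_low fraction had a higher mean level than yHSCs in 15 genes and a lower one in 24, and the median log2 fold change was -0.17 beside 0.083 for all genes. Calls by edgeR were 0 of the 39 and 0% of all genes, and DESeq2 called 0 of the 39 and 2.63% of all genes, while 4 of the 39 (10.3%) and 11.3% of all genes had an unadjusted p under 0.05. *Atg5* and *Gabarapl2* (5.13%) were above yHSCs in every library, against 9.59% of all genes. *Rb1cc1*, *Atg14* and *Foxo3* (7.69%) were below in every library, against 6.76% of all genes. The 3 comparisons share libraries, so agreement or opposition between them is not independent. Other choices of tool, scaling and filter called 0 of the 39 as well, except *Gabarapl2* in Selp_low paHSCs against yHSCs with limma voom sample weights.

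**Figure D2:**
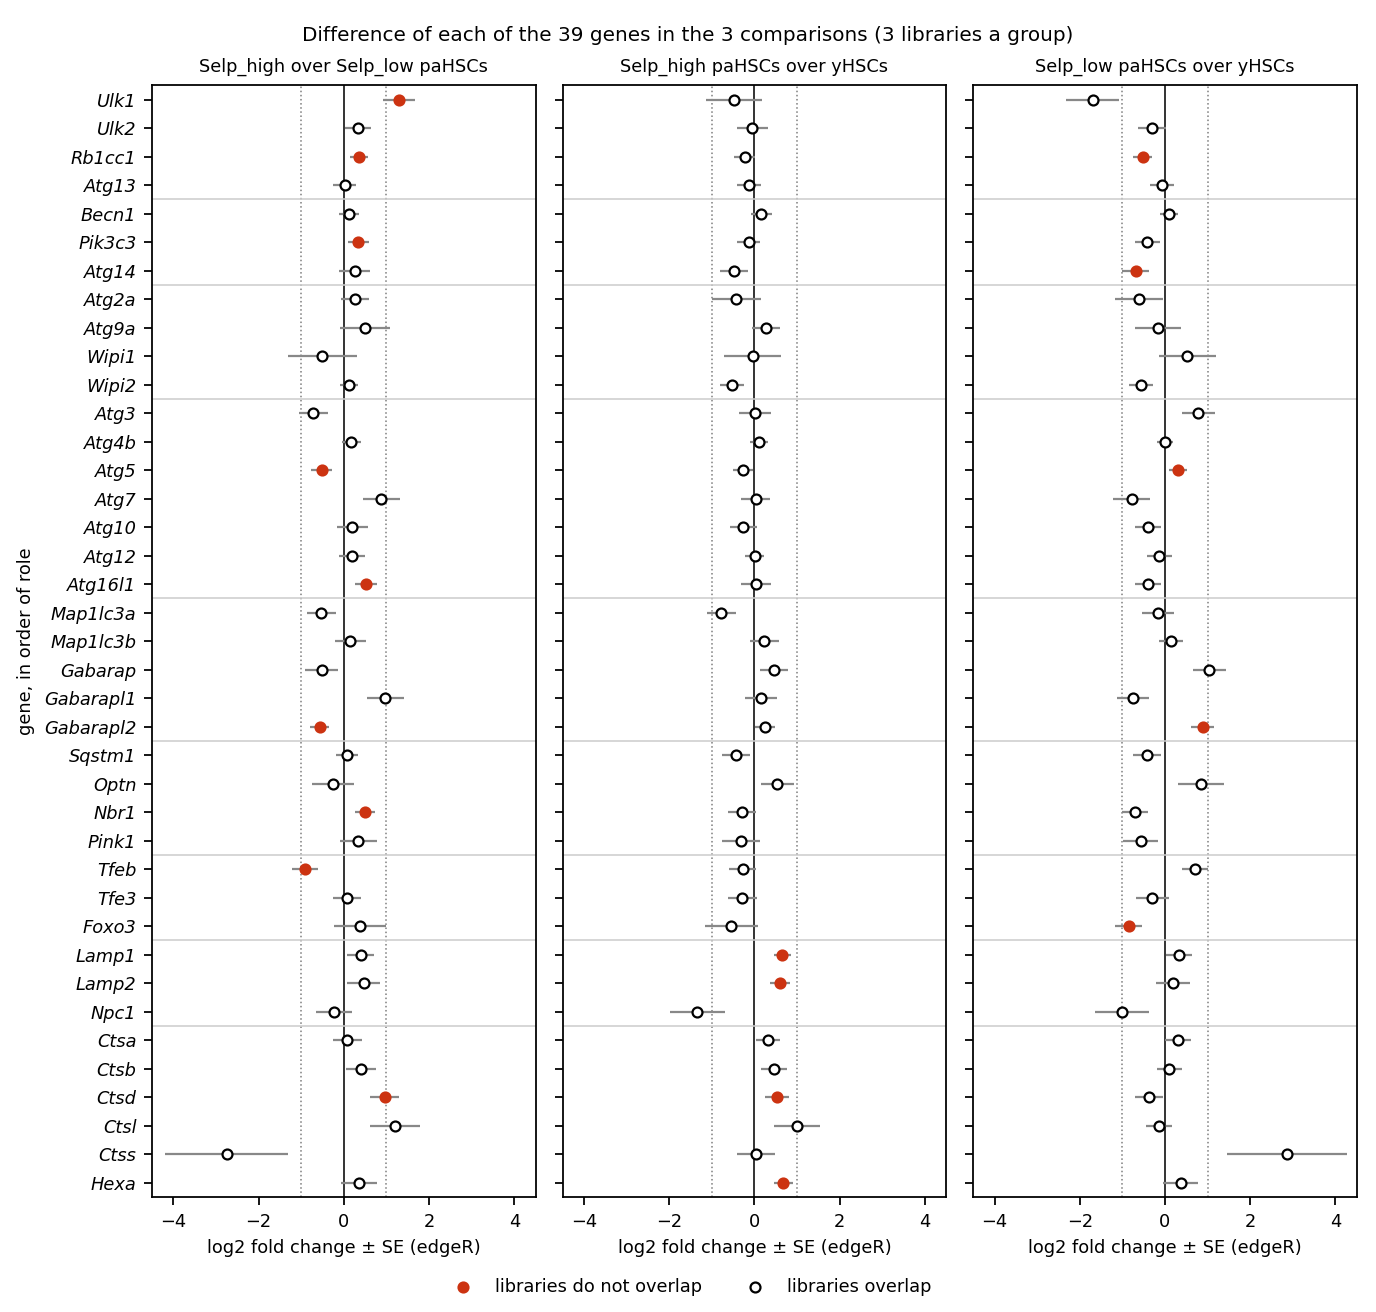
Points are log2 fold changes of the 39 genes from edgeR and bars their standard errors, for Selp_high over Selp_low paHSCs (left), Selp_high paHSCs over yHSCs (middle) and Selp_low paHSCs over yHSCs (right). Filled red points mark genes whose libraries do not overlap between the groups (9, 4 and 5 genes), dotted lines stand at -1 and 1, and most points lie between them (36, 37 and 35 of 39).

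The initiation complex had its lowest mean in Selp_low paHSCs in all 4 of its genes. *Ulk1* (chr5:110932354-110957963, minus strand, mm39) encodes the kinase that receives nutrient signals and starts the vesicle. Its level was 13.6, 91.5 and 70.7 CPM in the yHSC libraries, 13.8, 18.0 and 19.9 CPM in the Selp_low libraries and 26.2, 62.4 and 38.8 CPM in the Selp_high libraries. The Selp_low libraries were low and close together, every Selp_high library was above them, and yHSC replicate 1, with the highest neutrophil sum of its group, was as low as Selp_low; the part of those cells was not tested. For Selp_high over Selp_low paHSCs the log2 fold change was 1.30 (SE 0.38, edgeR adjusted p = 0.338). With a replicate block, which takes equal replicate numbers as pairs though the labels name none, it was 1.22 (edgeR adjusted p = 0.127). DESeq2 did not call *Ulk1* without the block (adjusted p = 0.157) and called it with the block (log2 fold change 1.21, adjusted p = 0.0049), a fit that called 10.1% of all genes. Against yHSCs, values of *Ulk1* given here because they stood out once seen, the Selp_low log2 fold change was -1.70 (SE 0.62, edgeR adjusted p = 0.375), and without yHSC replicate 1 it was -2.23. DESeq2 without that library gave -2.19 and called it (adjusted p = 6.6e-05), in a fit that called 10.8% of all genes.

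*Rb1cc1*, the large scaffold of the complex also named FIP200, was at 48.7, 67.4 and 77.2 CPM in yHSCs, 43.7, 39.8 and 46.2 CPM in Selp_low paHSCs and 58.9, 52.8 and 56.0 CPM in Selp_high paHSCs. The Selp_low libraries lay below both other groups with no overlap, at log2 fold changes of 0.36 (SE 0.21, edgeR adjusted p = 0.524) for Selp_high over Selp_low and -0.52 (SE 0.23, adjusted p = 0.458) for Selp_low over yHSCs. *Ulk2*, the sister kinase, was at 33.3 ± 13.3, 25.8 ± 2.70 and 32.5 ± 9.38 CPM (SD, n = 3) in yHSCs, Selp_low and Selp_high paHSCs. *Atg13*, the adaptor that holds the kinase to the scaffold, was nearly level at 50.1 ± 13.8, 45.7 ± 9.79 and 46.5 ± 7.02 CPM in the same order. Means of the other genes below are given in this order of groups, each ± SD with n = 3.

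The lipid kinase complex marks the nascent membrane with phosphatidylinositol 3-phosphate. *Pik3c3*, its catalytic subunit, was at 37.8, 47.1 and 67.2 CPM in yHSCs, 41.8, 38.8 and 29.0 CPM in Selp_low paHSCs and 52.2, 42.4 and 45.1 CPM in Selp_high paHSCs, so the paHSC fractions were apart by a small margin (log2 fold change 0.34, SE 0.25, edgeR adjusted p = 0.613). *Atg14*, which directs the complex to autophagy, was at 28.9, 32.2 and 48.1 CPM in yHSCs and 25.1, 14.5 and 25.9 CPM in Selp_low paHSCs, which did not overlap (log2 fold change -0.69, SE 0.32, edgeR adjusted p = 0.484). Its Selp_high libraries, at 34.9, 18.4 and 25.7 CPM, overlapped both groups. *Becn1*, the regulatory subunit, was among the steadiest genes at 100.5 ± 12.3, 105 ± 11.2 and 115 ± 21.2 CPM.

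Genes that supply lipid to the growing membrane or read its phosphoinositide mark overlapped in every comparison. *Atg2a*, a lipid transfer protein, was at 9.62, 49.6 and 46.3 CPM in yHSCs, with replicate 1 far below the others, and at 21.9 ± 4.74 and 26.5 ± 6.85 CPM in the paHSC fractions. *Atg9a*, the lipid scramblase of the seed vesicles, was at 25.2 ± 6.25, 22.0 ± 17.0 and 31.1 ± 10.3 CPM. *Wipi2*, which recruits the conjugation machinery, had means of 113 ± 35.4, 73.6 ± 5.66 and 80.3 ± 7.74 CPM, and yHSC replicate 1 (72.3 CPM) sat with the paHSC libraries while the other yHSC libraries were at 132 and 135 CPM. *Wipi1*, its relative, was highest in the libraries with the most neutrophil markers of each group, at 35.8 CPM in yHSC replicate 1, 62.8 CPM in Selp_low replicate 3 and 44.5 CPM in Selp_high replicate 3, against 7.20 to 23.3 CPM in the other 6. The part of neutrophil RNA in that pattern was not tested.

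The conjugation machinery joins ATG8 proteins to membrane lipid, and its 7 genes did not move as a block. *Atg5*, part of the complex that names the site of conjugation, was at 67.8, 70.0 and 72.0 CPM in yHSCs, 75.9, 76.2 and 100.2 CPM in Selp_low paHSCs and 71.6, 53.3 and 52.6 CPM in Selp_high paHSCs. Its Selp_low libraries lay above both other groups, with log2 fold changes of -0.51 (SE 0.25, edgeR adjusted p = 0.448) for Selp_high over Selp_low and 0.31 (SE 0.20, adjusted p = 0.665) for Selp_low over yHSCs. *Atg16l1*, the membrane anchor of the same complex, ran the other way between the fractions at 30.3, 30.2 and 29.3 CPM in Selp_low and 32.1, 49.3 and 47.6 CPM in Selp_high paHSCs (log2 fold change 0.52, SE 0.26, edgeR adjusted p = 0.473), and its yHSC libraries were at 23.7, 49.7 and 49.8 CPM. The 2 partners of 1 complex thus had opposite signs in that comparison, neither past the threshold.

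*Atg7*, the E1-like enzyme that activates both conjugation systems, had means of 94.0 ± 34.9, 53.2 ± 30.2 and 98.4 ± 26.3 CPM, and its Selp_low libraries were at 41.2, 31.0 and 87.6 CPM, with replicate 3 apart from the other 2. *Atg3*, the E2-like enzyme for ATG8, was at 105 ± 44.4, 178 ± 55.4 and 109 ± 32.0 CPM. *Atg10*, the E2-like enzyme for ATG12, was at 28.2 ± 3.81, 20.8 ± 6.11 and 24.0 ± 7.85 CPM. *Atg12* itself was at 89.4 ± 15.8, 79.6 ± 30.0 and 91.1 ± 6.35 CPM, and *Atg4b*, the protease that trims ATG8 proteins, at 81.9 ± 9.08, 79.3 ± 8.59 and 90.2 ± 10.7 CPM. All 5 of these genes overlapped between the groups in each comparison.

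No gene of the ATG8 family passed the threshold, and its 5 genes differed in sign in each comparison. *Gabarapl2* (chr8:112667335-112680244, plus strand, mm39), a member linked to late vesicle growth and Golgi traffic, was at 76.6, 52.4 and 67.8 CPM in yHSCs, 121, 131 and 99.4 CPM in Selp_low paHSCs and 86.3, 72.5 and 79.6 CPM in Selp_high paHSCs. Every Selp_low library was above all the others. The log2 fold change was 0.88 (SE 0.26, edgeR adjusted p = 0.337) for Selp_low over yHSCs, the lowest adjusted p of the 39 there, and -0.57 (SE 0.23, adjusted p = 0.382) for Selp_high over Selp_low. With limma voom sample weights the former was 1.04 with an adjusted p of 0.0497, and over all 21 alternatives its adjusted p ranged up to 0.981.

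*Gabarap* and *Gabarapl1*, close paralogs whose reads the counting could split, had fold changes of opposite sign between the fractions. *Gabarap* was at 79.5, 139 and 159 CPM in yHSCs, 141, 284 and 322 CPM in Selp_low paHSCs and 121, 185 and 218 CPM in Selp_high paHSCs. *Gabarapl1*, also a known target of FOXO factors, was at 148, 228 and 289 CPM in yHSCs, 147, 72.4 and 163 CPM in Selp_low paHSCs and 369.5, 157 and 227 CPM in Selp_high paHSCs. Per length, the ratio of *Gabarapl1* to *Gabarap* FPKM was 1.51 to 1.70 in yHSCs, 0.23 to 0.95 in Selp_low paHSCs and 0.78 to 2.80 in Selp_high paHSCs. *Gabarapl1* was thus the more abundant of the pair in all yHSC libraries and *Gabarap* in all Selp_low libraries, while the Selp_high libraries fell on both sides. This ratio was chosen after the values were seen and was not tested.

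*Map1lc3b*, whose protein LC3B is the usual marker of autophagosomes, was at 544 ± 75.0, 582 ± 92.8 and 652 ± 278 CPM, with the high SD of the Selp_high fraction set by replicate 1 (973 CPM). *Map1lc3a* was at 46.1 ± 17.0, 39.5 ± 15.0 and 27.5 ± 5.32 CPM. The FPKM of the 5 family genes summed to 318 ± 61.2, 360 ± 46.5 and 364 ± 73.7 FPKM, differences smaller than the spread between libraries.

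**Figure D3:**
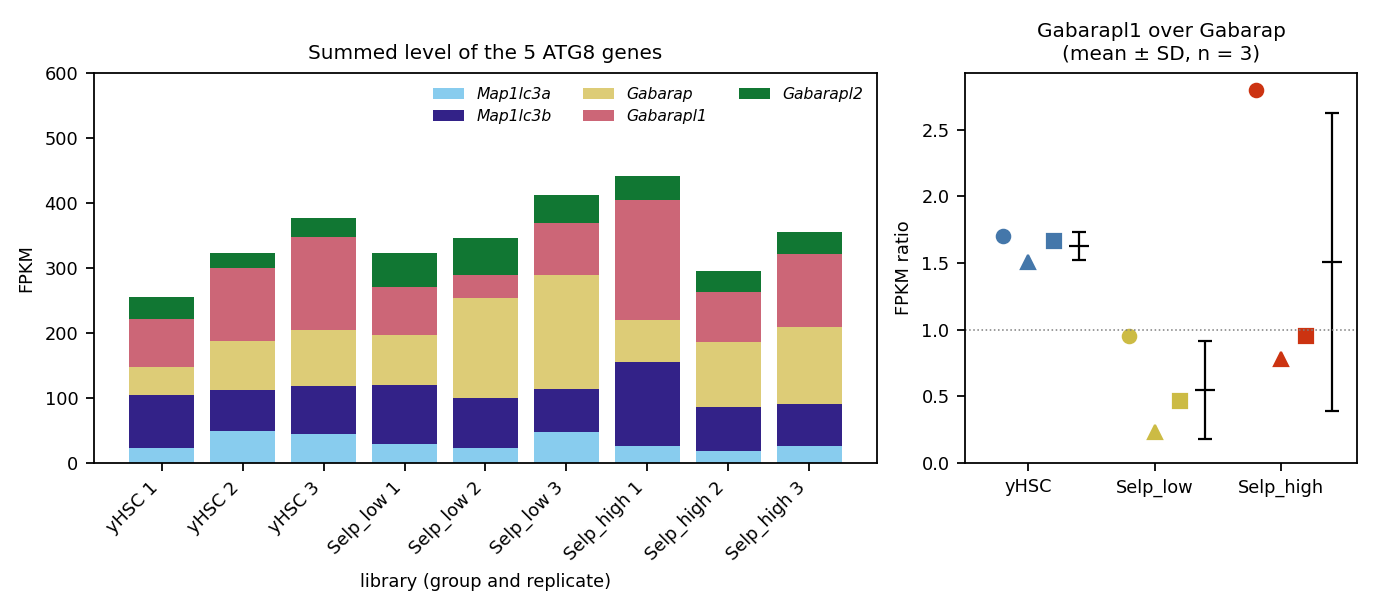
Stacked bars give the FPKM of the 5 ATG8 genes in each library (left) and points the FPKM ratio of *Gabarapl1* to *Gabarap* (right; circle, triangle and square are replicates 1, 2 and 3, with the mean ± SD, n = 3). The stacks are of like height in the 3 groups (318, 360 and 364 FPKM on average), while the ratio is above 1 in every yHSC library and below 1 in every Selp_low library.

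Of the 4 genes for cargo receptors and mitophagy, 3 had a lower mean in each paHSC fraction than in yHSCs, and none passed the threshold. *Sqstm1* (p62), which carries ubiquitinated aggregates, was at 250.3, 547 and 522 CPM in yHSCs and at 313 ± 22.4 and 330.3 ± 57.8 CPM in the Selp_low and Selp_high fractions, so yHSC replicate 1 was below all 6 paHSC libraries and the other yHSC libraries above all of them. *Nbr1*, a related receptor, was at 62.7, 128 and 132 CPM in yHSCs, 64.5, 67.4 and 58.0 CPM in Selp_low paHSCs and 70.2, 104 and 95.5 CPM in Selp_high paHSCs. Its paHSC fractions did not overlap (log2 fold change 0.50, SE 0.24, edgeR adjusted p = 0.456). *Optn*, a receptor for mitochondria and bacteria, was at 25.2 ± 10.4, 44.7 ± 24.9 and 37.5 ± 10.1 CPM. *Pink1*, the kinase that flags damaged mitochondria, was at 226 ± 95.8, 144 ± 46.7 and 184 ± 91.1 CPM, with all groups overlapping.

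All 3 transcription factors had lower means in Selp_high paHSCs than in yHSCs, and their signs were mixed in the other comparisons. *Tfeb* (chr17:48047955-48103344, plus strand, mm39) was at 21.2, 29.4 and 39.5 CPM in yHSCs, 45.7, 58.6 and 36.3 CPM in Selp_low paHSCs and 19.4, 25.3 and 30.7 CPM in Selp_high paHSCs. Each Selp_high library lay below each Selp_low library, at a log2 fold change of -0.91 (SE 0.30, edgeR adjusted p = 0.338), where leaving out any 1 library gave -1.07 to -0.69. It was 0.70 (SE 0.32, edgeR adjusted p = 0.467) for Selp_low over yHSCs and -0.28 (SE 0.32, adjusted p = 0.988) for Selp_high over yHSCs. The lower *Tfeb* of the Selp_high fraction stood beside higher means of *Lamp1*, *Lamp2*, *Ctsd* and *Hexa*, among them known targets of TFEB, and neither side passed the threshold.

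*Tfe3*, the closest relative of *Tfeb* here, was at 22.4, 48.7 and 50.7 CPM in yHSCs, 22.6, 27.7 and 45.8 CPM in Selp_low paHSCs and 30.7, 37.0 and 33.7 CPM in Selp_high paHSCs. It overlapped in all comparisons, with log2 fold changes of 0.072 (SE 0.32, edgeR adjusted p = 0.945) between the fractions, -0.29 (SE 0.34, adjusted p = 0.991) for Selp_high over yHSCs and -0.29 (SE 0.39, adjusted p = 0.904) for Selp_low over yHSCs. *Foxo3* was at 19.4, 36.1 and 25.5 CPM in yHSCs and 17.0, 14.4 and 11.8 CPM in Selp_low paHSCs, which were below every yHSC library (log2 fold change -0.85, SE 0.32, edgeR adjusted p = 0.384). The Selp_high libraries were split, with 37.4 CPM in replicate 2 but 11.2 and 7.70 CPM in replicates 1 and 3. Its log2 fold change was thus -0.54 (SE 0.62, adjusted p = 0.988) over yHSCs and 0.38 (SE 0.61, adjusted p = 0.832) over Selp_low paHSCs, and without Selp_high replicate 2 these were -1.55 and -0.61; DESeq2 called the former (adjusted p = 0.024) once that library was out, in a fit that called 3.27% of all genes.

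The 4 genes of the 39 whose Selp_high libraries lay above all yHSC libraries are lysosomal, and none was called. *Lamp1* (chr8:13209161-13225338, plus strand, mm39), the most abundant membrane glycoprotein of lysosomes, was at 253, 238 and 288 CPM in yHSCs, 252, 241 and 457 CPM in Selp_low paHSCs and 423, 384 and 444 CPM in Selp_high paHSCs. All 3 Selp_high libraries were high and close together, while the Selp_low fraction held 2 libraries at the yHSC level and 1 above every Selp_high library. The log2 fold change over yHSCs was 0.66 (SE 0.20, edgeR adjusted p = 0.421, DESeq2 adjusted p = 0.146), and leaving out any 1 library gave 0.63 to 0.70. *Lamp2* (chrX:37490234-37545331, minus strand, mm39), needed for fusion of autophagosomes with lysosomes, followed the same order at 215, 154 and 229 CPM, 141, 169 and 362 CPM, and 286, 298 and 345 CPM. Its log2 fold change for Selp_high over yHSCs was 0.61 (SE 0.23, edgeR adjusted p = 0.588).

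*Hexa* (chr9:59446823-59472392, plus strand, mm39), the alpha subunit of the hexosaminidase that degrades gangliosides, was at 149, 123 and 168 CPM in yHSCs, 132, 111 and 316 CPM in Selp_low paHSCs and 225, 244 and 251 CPM in Selp_high paHSCs. For Selp_high over yHSCs the log2 fold change was 0.68 (SE 0.21, edgeR adjusted p = 0.424). *Ctsd* (chr7:141929648-141941775, minus strand, mm39), the main aspartic protease of lysosomes, was at 187, 269 and 328 CPM in yHSCs, 164, 141 and 281 CPM in Selp_low paHSCs and 341, 462 and 343 CPM in Selp_high paHSCs. It was the gene of the 39 whose Selp_high libraries were above all libraries of both other groups. The log2 fold change was 0.53 (SE 0.27, edgeR adjusted p = 0.776) over yHSCs and 0.96 (SE 0.34, adjusted p = 0.350) over Selp_low paHSCs, and in the latter comparison DESeq2 with the replicate block called it (1.01, adjusted p = 0.032).

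Like these 4 genes, the megakaryocyte and platelet sum separated Selp_high paHSCs (1202 to 7126 CPM) from yHSCs (110 to 179 CPM). Of its 9 markers, 1 (*Gp1bb*) was at 0 in all yHSC libraries. In Selp_low paHSCs the sum was 128, 1556 and 2012 CPM. Selp_low replicate 2 was above Selp_high replicate 1 in this sum mainly through *Pf4* (1144 against 78.1 CPM), with *Treml1* and *Gp1bb* also above. It was below that library in *Itga2b* (253 against 441 CPM), *Ppbp* (44.1 against 306 CPM) and *Tubb1* (10.6 against 207 CPM). *Gp9*, *Gp1ba* and *Gp6* were below as well. In each of the 4 genes Selp_low replicate 2 was below every Selp_high library. The part of megakaryocyte and platelet RNA in the result was not tested. In all 4 of these genes Selp_low replicate 3 was the highest Selp_low library, and it also carried the highest neutrophil sum and a macrophage and monocyte sum of 27602 CPM, mostly *Lyz2* (25571 CPM). The neutrophil sum of yHSC replicate 1 was 63334 CPM. There *Lamp1*, *Lamp2* and *Hexa* lay between the other yHSC libraries, and *Ctsd* was the lowest. The part of neutrophil, macrophage or monocyte RNA in the levels of these libraries was not tested. Without Selp_low replicate 3 the log2 fold change of Selp_high over Selp_low was 0.75 for *Lamp1*, 1.00 for *Lamp2*, 0.97 for *Hexa* and 1.32 for *Ctsd*, up from 0.39, 0.47, 0.36 and 0.96.

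**Figure D4:**
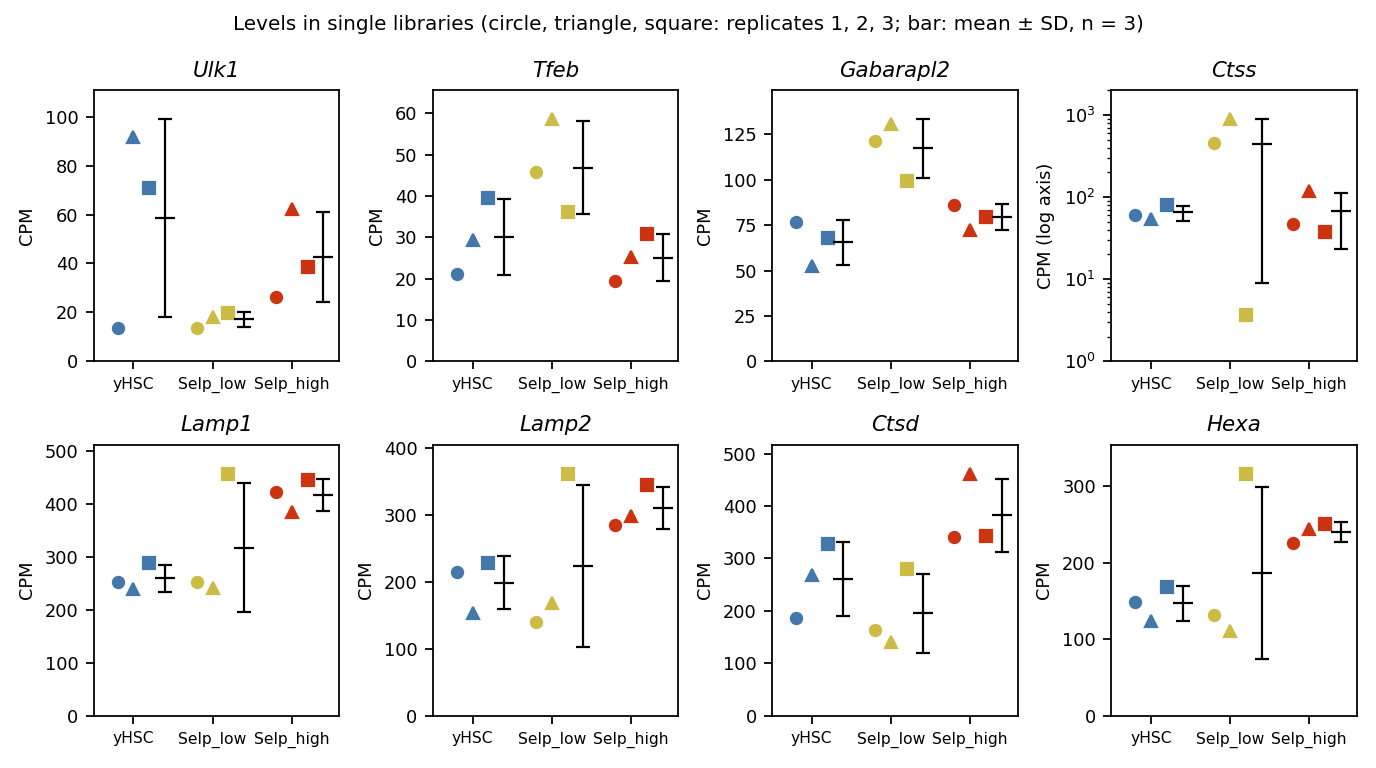
CPM of 8 genes in the single libraries (circle, triangle and square are replicates 1, 2 and 3; black bars are the mean ± SD, n = 3), on linear axes from 0 except *Ctss*, which has a log axis. Selp_high libraries are above all yHSC libraries for *Lamp1*, *Lamp2*, *Ctsd* and *Hexa*, Selp_low libraries are the highest for *Gabarapl2*, and *Ctss* in Selp_low runs from 3.67 to 879 CPM.

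The promoters of these 4 genes are shown because their libraries separated Selp_high paHSCs from yHSCs and because TFEB and its relatives bind the palindrome CACGTG. Each is the 250 bases before the RefSeq start, read 5′ to 3′ on the strand of the gene in GRCm38.p6, a build whose positions differ from the mm39 positions above. They lie at chr8:13158911-13159160 on the plus strand (*Lamp1*), chrX:38456461-38456710 on the minus strand (*Lamp2*), chr7:142387828-142388077 on the minus strand (*Ctsd*) and chr9:59539290-59539539 on the plus strand (*Hexa*). Capitals mark every CACGTG.
Lamp1: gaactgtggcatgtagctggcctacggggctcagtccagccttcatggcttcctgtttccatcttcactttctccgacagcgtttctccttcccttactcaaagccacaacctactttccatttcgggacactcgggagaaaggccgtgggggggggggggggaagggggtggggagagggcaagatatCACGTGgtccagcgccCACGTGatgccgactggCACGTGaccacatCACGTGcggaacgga
Lamp2: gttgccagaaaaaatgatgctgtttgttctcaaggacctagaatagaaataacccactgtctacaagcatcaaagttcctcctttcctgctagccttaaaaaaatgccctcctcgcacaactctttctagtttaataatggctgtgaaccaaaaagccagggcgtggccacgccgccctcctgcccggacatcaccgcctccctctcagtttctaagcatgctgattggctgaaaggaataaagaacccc
Ctsd: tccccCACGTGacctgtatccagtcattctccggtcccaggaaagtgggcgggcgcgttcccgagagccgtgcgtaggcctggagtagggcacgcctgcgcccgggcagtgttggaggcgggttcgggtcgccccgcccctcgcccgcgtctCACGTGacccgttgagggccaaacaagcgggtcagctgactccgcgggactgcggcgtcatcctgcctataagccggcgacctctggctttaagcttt
Hexa: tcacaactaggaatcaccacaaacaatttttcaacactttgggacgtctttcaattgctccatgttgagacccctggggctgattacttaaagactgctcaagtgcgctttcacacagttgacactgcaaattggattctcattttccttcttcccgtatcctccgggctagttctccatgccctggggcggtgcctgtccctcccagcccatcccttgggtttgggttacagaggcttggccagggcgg
*Lamp1* held 4 matches, which began 61, 45, 28 and 15 bases before the start, and *Ctsd* held 2, at 245 and 98 bases, while the windows of *Lamp2* and *Hexa* held none. RefSeq windows were found for 31 of the 39 genes, some with several starts, and 7 of their 36 windows (19.4%) held CACGTG, against 6.02% of 32851 windows of the same length over all genes. The 7 windows belonged to 7 genes, *Lamp1*, *Ctsd*, *Ctsa*, *Ctsl*, *Atg3*, *Atg5* and *Atg7*, which is 4 of 7 lysosomal genes with a window and 3 of 24 others. The longer palindrome TCACGTGA, which contains the first, was in 3 (*Ctsd*, *Ctsa* and *Atg3*; 8.33% of the 36) against 0.785% of all windows. *Lamp1* and *Ctsd* separated Selp_high paHSCs from yHSCs with the letters in their window, and *Lamp2* and *Hexa* without them. *Atg3*, *Atg5*, *Atg7*, *Ctsl* and *Ctsa* overlapped with them, *Ctsa* having them in 1 window and not in the other. Only 250 bases a start were read, and the part of these sites in the levels was not tested.

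The remaining hydrolases varied within groups. *Ctsb*, an abundant cysteine protease, was at 571 ± 113, 596 ± 130.0 and 794 ± 255 CPM, and *Ctsa*, the carboxypeptidase that shields other lysosomal enzymes, at 190.3 ± 25.9, 226 ± 67.3 and 241 ± 72.7 CPM. *Ctsl*, another cysteine protease, was at 83.6 ± 12.8, 73.3 ± 26.9 and 170 ± 136 CPM, where Selp_high replicate 1 alone reached 325 CPM and the other Selp_high libraries were at 114 and 69.7 CPM. *Npc1*, the cholesterol exporter of the lysosomal membrane, was at 5.42, 34.5 and 20.6 CPM in yHSCs and at 9.52 ± 3.38 and 8.13 ± 2.50 CPM in the fractions, so yHSC replicate 1 sat with the paHSCs.

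*Ctss* (chr3:95434097-95463714, plus strand, mm39), the cysteine protease of antigen-presenting cells, had the largest fold change of the 39 and the largest error, and its folds are given because they stood out once seen. It was at 60.6, 54.6 and 79.8 CPM in yHSCs, 458, 879 and 3.67 CPM in Selp_low paHSCs and 46.4, 118 and 37.8 CPM in Selp_high paHSCs. The Selp_low libraries thus took both the highest and the lowest levels of the series. The B-cell sum in the same Selp_low libraries was 9234, 170344 and 521 CPM, with *Cd79a* of the B-cell receptor at 2495, 4245 and 8.73 CPM, and Selp_high replicate 2, the highest of its group for *Ctss*, had the highest B-cell sum of its group at 8818 CPM. Among macrophage markers, Selp_high replicate 2 was the highest of its group for *C1qa* (52.1 CPM), *C1qb* (108 CPM) and *Csf1r* (36.9 CPM). For *Lyz2* (998 CPM) and *Cd14* (3.30 CPM) it was the lowest. The part of B-cell or macrophage RNA in these levels was not tested. The log2 fold change was -2.74 (SE 1.44, edgeR adjusted p = 0.487) for Selp_high over Selp_low and 2.86 (SE 1.41, adjusted p = 0.514) for Selp_low over yHSCs. Without Selp_low replicate 3 the latter was 3.36 and passed the threshold (edgeR adjusted p = 0.033).

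Equal replicate numbers were taken as pairs of the 2 paHSC fractions, from residual correlations of 0.178 to 0.303 and not from the labels. Directions were also read within these pairs. Replicate 2 had the highest B-cell sum and replicate 3 the highest neutrophil sum in both fractions. The part of those cells in the correlations was not tested. In all 3 pairs 12 of the 39 genes were higher in the Selp_high library, among them *Ulk1*, *Rb1cc1*, *Pik3c3*, *Atg7*, *Atg16l1*, *Nbr1*, *Gabarapl1*, *Ctsd* and *Ctsl*, and 7 were lower, namely *Atg3*, *Atg5*, *Map1lc3a*, *Gabarap*, *Gabarapl2*, *Tfeb* and *Npc1*. Of all genes tested 21.73% were higher and 24.65% lower in all 3 pairs.

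Another 133 genes of the pathway, held in 5 lists, put these values in context. edgeR called none of them in any comparison. DESeq2 called 3 of 132 tested for Selp_high over Selp_low paHSCs, 1 of 131 for Selp_high paHSCs over yHSCs and 1 of 132 for Selp_low paHSCs over yHSCs, where it called 2.46%, 3.26% and 2.63% of all genes. They were all soluble hydrolases or their cofactor. *Gaa*, the acid glucosidase that digests glycogen, was at 75.1, 68.2 and 87.7 CPM in Selp_low and 315, 192 and 236 CPM in Selp_high paHSCs (log2 fold change 1.68, SE 0.28, edgeR adjusted p = 0.338, DESeq2 adjusted p = 0.012). *Ctsh*, an aminopeptidase, ran the other way at 326, 309 and 117 CPM against 69.0, 62.6 and 63.5 CPM (-1.96, SE 0.42, edgeR adjusted p = 0.338, DESeq2 adjusted p = 0.018), and its yHSC libraries were at 76.6, 34.1 and 50.0 CPM (Selp_low over yHSCs 2.27, SE 0.52, DESeq2 adjusted p = 0.017). *Acp5*, a phosphatase known from osteoclasts and macrophages, was at 104, 104 and 17.6 CPM in Selp_low and 16.6, 15.5 and 15.1 CPM in Selp_high paHSCs (-2.27, SE 0.63, DESeq2 adjusted p = 0.037). Within Selp_low both *Ctsh* and *Acp5* were highest in replicates 1 and 2, whose B-cell sums were 9234 and 170344 CPM against 521 CPM in replicate 3. The part of B-cell RNA in their levels was not tested. *Gm2a*, the cofactor of the hexosaminidase made from *Hexa*, was lower in Selp_high paHSCs, at 76.4, 118 and 62.7 CPM, than in yHSCs, at 213, 170.0 and 310.3 CPM (-1.44, SE 0.33, edgeR adjusted p = 0.229, DESeq2 adjusted p = 0.0082), opposite in direction to *Hexa*.

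Among the 38 other soluble hydrolases tested between the fractions, 25 had a higher mean level in Selp_high paHSCs, and 16 (42.1%) were above Selp_low paHSCs in every library while 3 (7.89%) were below, beside 10.3% and 10.7% of all genes. The median log2 fold change was 0.43 against -0.11 for all genes, and leaving out any 1 library gave 0.30 to 0.53. The genes with a higher level then numbered 20 (without Selp_high replicate 1) to 28 (without Selp_low replicate 2) of 38. The HSC marker sum also separated the fractions, at 819 to 1505 CPM in Selp_low and 2172 to 3118 CPM in Selp_high paHSCs. The part of cell composition in the list was not tested. The largest of the 16 was that of *Ctsf*, a cysteine protease, at 38.0, 11.0 and 23.4 CPM in Selp_low and 141, 67.4 and 71.8 CPM in Selp_high paHSCs (1.94, SE 0.52, edgeR adjusted p = 0.338). Against yHSCs, 2 of 38 genes of the list (5.26%) were above in every Selp_high library, beside 8.53% of all genes, with a median of 0.23 beside -0.033.

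The 16 subunits of the proton pump that acidifies the lysosome (V-ATPase) were tested in each comparison. Of these, 14 had a higher mean level in Selp_low paHSCs than in yHSCs, 5 (31.25%) were above in every library, beside 9.59% of all genes, and the median log2 fold change was 0.57 beside 0.083 for all genes, which became 0.081 and 0.023 without Selp_low replicate 3. *Atp6v0e*, a membrane subunit, was at 199, 95.1 and 116 CPM in yHSCs, 286, 315 and 347 CPM in Selp_low paHSCs and 170, 135 and 141 CPM in Selp_high paHSCs (Selp_low over yHSCs 1.23, SE 0.35, edgeR adjusted p = 0.333; Selp_high over Selp_low -1.10, SE 0.24, adjusted p = 0.338). Between the fractions 4 subunits (25%) were lower in every Selp_high library, beside 10.7% of all genes, with a median of -0.19 beside -0.11 for all genes, which became 0.057 and -0.064 without Selp_low replicate 3.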

How the data were processed

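RNA-seq of 9 bulk libraries was analysed, 3 a group. Per the labels and the study's methods, RNA was extracted with RNeasy, amplified with the SMARTer Ultra Low kit and made into libraries with TruePrep, and reads were trimmed with fastp, aligned with HISAT2 2.2.1 to mm39 and counted per gene with featureCounts 2.0.6; the authors deposited these raw read counts, with no normalization, beside gene lengths. Which gene annotation was used, whether strand was counted and how multi-mapped reads were handled is not given in the sources read here, so overlapping genes and close paralogs may share reads. Unused per-sample columns numbered 0. Replicates within a group differed by more than sampling noise.

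Counts were fitted for 2 groups at a time in R 4.3.3 with edgeR 4.0.16 (TMM factors, filterByExpr by group, quasi-likelihood test, two-sided) and Benjamini-Hochberg adjustment over all genes tested. A call needed an adjusted p no higher than 0.05 together with a log2 fold change of 1 or more in either direction. DESeq2 1.42.0, limma 3.58.1, other scaling and filters, 1 fit of 9 libraries, a replicate block and each library left out were alternatives. DESeq2 with a block, with no minimum fold change and with a library left out was added after the data were seen. Steps were tested on simulated data. Plots used matplotlib 3.10.9 under Python 3.11.15.

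Equal replicate numbers were taken as pairs where every correlation of residuals was above 0.1. It was 0.178, 0.276 and 0.303 between the paHSC fractions, and -0.417 to 0.0917 with yHSCs. Folds were named for genes called or without overlap (at most 10 a comparison) and for *Tfeb*, *Tfe3* and *Foxo3*, and for other genes of the pathway at most 3 a list. *Ctss*, and *Ulk1* against yHSCs, were chosen after their values were seen. The 39 genes and all lists were chosen with earlier results of these data known.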

Additional observations from a re-analysis of the deposited data

How the results depend on the processing

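In Selp_low paHSCs against yHSCs, limma voom with quality weights called 1 (*Gabarapl2*) and 2.11% of all genes, and with each library left out edgeR called 0 to 1 (*Ctss* without Selp_low replicate 3, a fit in which 0.534% of all genes were called). With a library left out DESeq2 called 0 to 3 between the paHSC fractions (*Atg7*, *Ctsd* and *Ctss* without Selp_low replicate 3, beside 5.43% of all genes, and *Ulk1* without Selp_high replicate 1, beside 1.79%), 0 to 1 for Selp_high paHSCs over yHSCs (*Npc1* without yHSC replicate 1, beside 4.71%, and *Foxo3* without Selp_high replicate 2, beside 3.27%) and 0 to 2 for Selp_low paHSCs over yHSCs (*Atg7* and *Ctss* without Selp_low replicate 3, beside 7.40%, and *Ulk1* without yHSC replicate 1, beside 10.8%). With the replicate block, edgeR called 0 in each comparison. DESeq2 with the block called 2 between the fractions (*Ctsd* and *Ulk1*, beside 10.1% of all genes), where equal numbers were taken as pairs, and 0 in the others. Over 14 alternatives of 28 named fold changes, which leave out the added DESeq2 fits above, 387 values kept direction and side of the threshold, 2 passed it anew (*Gabarapl2* and *Ctss*, as above) and 3 were reversed in sign. Between the fractions *Tfe3* ranged from -0.11 to 0.42 with a library left out, and *Foxo3* from -0.61 to 0.75 and at -0.39 with voom weights. The cause was not tested. The median fold change of the 39 stayed above 0 between the fractions in all 14 alternatives (0.12 to 0.27), and ranged from -0.20 to 0.065 for Selp_high paHSCs and -0.41 to 0.010 for Selp_low paHSCs over yHSCs. Without yHSC replicate 1 the genes below yHSCs in every library went from 3 to 16 in Selp_low paHSCs, as those of all genes went to 21.6%, and from 0 to 10 in Selp_high paHSCs, as all genes went to 16.1%; without Selp_low replicate 3 those above Selp_low paHSCs went from 6 to 16, as all genes went to 17.3%. With 3 libraries a group, the median standard error of the 39 was 0.32 to 0.34 on the log2 scale.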

Other observations

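Upstream of autophagy, the Ragulator and Rag proteins tether the growth kinase mTORC1 to the lysosome. Among 28 genes of this control step, 7 (25.0%) were lower and 3 (10.7%) higher in every Selp_high library than in every Selp_low library, beside 10.7% and 10.3% of all genes, and edgeR and DESeq2 called 0. *Lamtor2*, a Ragulator subunit, was at 119, 57.8 and 67.2 CPM in yHSCs, 171, 224 and 222 CPM in Selp_low paHSCs and 119, 58.3 and 124 CPM in Selp_high paHSCs, so the Selp_low libraries were the highest of the series. Its log2 fold change was -1.05 (SE 0.34, edgeR adjusted p = 0.338) for Selp_high over Selp_low and 1.37 (SE 0.36, adjusted p = 0.332) for Selp_low over yHSCs. *Rragb*, a Rag GTPase, ran the other way, at 23.8, 13.6 and 14.5 CPM in Selp_low and 59.6, 24.8 and 33.5 CPM in Selp_high paHSCs (1.17, SE 0.42, edgeR adjusted p = 0.354), and *Tsc1*, which restrains mTORC1, was at 18.0, 17.2 and 18.4 CPM in Selp_high paHSCs against 23.9, 34.9 and 23.9 CPM in yHSCs (-0.67, SE 0.29, edgeR adjusted p = 0.681).

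Among 30 further autophagy genes and 20 further lysosomal membrane genes, edgeR and DESeq2 called 0 in each comparison. *Calcoco1*, a receptor for the endoplasmic reticulum, was the 1 autophagy gene of that list above Selp_low paHSCs in every Selp_high library, at 51.9, 59.8 and 54.6 CPM against 23.9, 42.7 and 20.3 CPM (0.93, SE 0.33, edgeR adjusted p = 0.358). *Ostm1*, a partner of the lysosomal chloride exchanger, was at 56.6, 74.5 and 105 CPM in Selp_high paHSCs and 40.4, 34.0 and 42.9 CPM in yHSCs (0.98, SE 0.29, edgeR adjusted p = 0.381, DESeq2 adjusted p = 0.122). *Laptm4b*, a lysosomal transmembrane protein, was at 38.8, 12.9 and 15.6 CPM in Selp_low paHSCs and 53.5, 59.9 and 75.7 CPM in yHSCs (-1.44, SE 0.46, edgeR adjusted p = 0.344).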
